A study of Mus musculus with 7 samples.

Results

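Oligodendrocyte precursor cells (OPCs) divide, become committed, pass through a brief stage as newly differentiating oligodendrocytes (OLs) and then make myelin. 9 genes that mark these steps were followed in RNASeq of the contused mouse spinal cord: *Pdgfra*, *Cspg4* and *Lhfpl3* for OPCs, *Olig1*, *Olig2* and *Sox10* for the whole lineage, and *Gpr17*, *Bcas1* and *Enpp6* for committed precursors and newly differentiating OLs. They were found by gene symbol, all 9 were among the 21965 genes counted, and all 9 passed the filter on low counts. The tissue was a 5 mm segment with the injury epicenter, taken at 3 days post-injury (dpi 3) after a 50 kdyn contusion at T9. Young adult mice labelled *Bmal1*-/- (n = 3, 2 females and 1 male) were compared with WT mice (n = 4, 2 females and 2 males), with 1 library per mouse. All 7 mice were contused and none was a sham, so the comparison is of genotypes after injury. *Bmal1*, also called *Arntl*, encodes a transcription factor of the circadian clock. The *Bmal1*-/- mice came from crosses of heterozygotes for a germ-line null allele on a C57BL/6J background. Most WT mice were bought C57BL/6J mice matched for age and sex rather than littermates, so genotype and origin cannot be told apart for those mice.

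In the adult spinal cord OPCs are spread through gray and white matter, and they divide and give rise to new OLs after injury. PDGF is their main mitogen, and OLIG2 and SOX10 hold the identity of the lineage at every step. Exit from the precursor state is marked by loss of the PDGF receptor and NG2 and by a short peak of *Gpr17*, followed by *Bcas1* and *Enpp6* as premyelinating cells appear and then by the myelin genes. Several of these genes have other sources in a contused cord: fibroblasts use *Pdgfra*, pericytes use *Cspg4*, and Schwann cells use *Sox10*.

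BMAL1 binds E-boxes of the form CACGTG, and the OLIG proteins belong to the basic helix-loop-helix family, which reads CANNTG. RefSeq promoter windows (GRCm38.p6) of 250 bases before the gene start were at hand for 5 of the 9 genes, *Pdgfra*, *Cspg4*, *Olig2*, *Lhfpl3* and *Enpp6*. Searched on both strands, CACGTG and its variant CACGTT were in 0 of the 5 windows, while 6.02% and 3.85% of all 32851 promoter windows held them. CANNTG, of which CACGTG is a form, was in 2 of the 5 windows and in 66.2% of all windows. The 3 windows that overlap no annotated exon are shown because they stand in front of the steadiest gene, *Pdgfra*, the gene whose groups did not overlap, *Lhfpl3*, and the latest marker, *Enpp6*. They are read on the + strand, from chr5:75152001-75152250, chr5:22745804-22746053 and chr8:46986637-46986886, with CANNTG in capitals.
Pdgfra: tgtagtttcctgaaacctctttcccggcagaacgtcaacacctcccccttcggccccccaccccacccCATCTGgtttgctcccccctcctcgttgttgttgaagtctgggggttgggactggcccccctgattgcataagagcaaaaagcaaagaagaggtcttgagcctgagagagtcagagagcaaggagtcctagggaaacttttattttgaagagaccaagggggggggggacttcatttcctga
Lhfpl3: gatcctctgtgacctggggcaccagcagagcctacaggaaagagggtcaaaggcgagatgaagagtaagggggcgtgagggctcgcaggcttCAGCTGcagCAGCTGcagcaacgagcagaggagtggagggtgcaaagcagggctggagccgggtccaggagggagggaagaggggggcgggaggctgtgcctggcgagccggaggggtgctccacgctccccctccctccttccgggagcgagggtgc
Enpp6: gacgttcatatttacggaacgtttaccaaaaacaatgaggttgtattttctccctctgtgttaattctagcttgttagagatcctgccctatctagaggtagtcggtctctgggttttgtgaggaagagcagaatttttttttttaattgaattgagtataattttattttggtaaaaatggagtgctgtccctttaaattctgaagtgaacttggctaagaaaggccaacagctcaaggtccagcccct
Counted from the RefSeq start, the base after each window, the capitals begin 182 bases upstream in *Pdgfra*, and 158 and 149 bases upstream in *Lhfpl3*. For *Pdgfra* and *Lhfpl3* the RefSeq start lies upstream of the GENCODE gene start given below. The missing letters say nothing of where BMAL1 binds.

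Library totals ran from 38529644 to 44096737 counts and the 9 genes had 1848 to 77765 counts in each library, so spread between mice rather than counting set their error. Levels are in CPM, the count scaled by library size and TMM factors, and every difference is a log2 fold change of the mice labelled *Bmal1*-/- against WT, with its standard error (SE). The targeted gene, *Arntl*, had 23.6 ± 0.94 CPM in the mice labelled *Bmal1*-/- (SD, n = 3) and 13.8 ± 1.5 CPM in WT (SD, n = 4), a log2 fold change of 0.77 that passed the test (adjusted p = 0.0155) but not without *Bmal1*-/- replicate 1, 2 or 3 or WT replicate 4, where the adjusted p was 0.052 to 0.102. A count over the whole gene does not separate the deleted part from the rest and does not check the label, so the group is called by its label below. All 10 neuron, 9 astrocyte and 14 mature myelin markers passed the filter on low counts. The libraries differed in markers of other cell types. WT replicate 3 had the lowest sum of 10 neuron markers, 2403 CPM against 4304 to 7110 CPM in the other 6 libraries, and the highest sums of mature myelin, microglia and macrophage, endothelial and proliferation genes. The 12 fibroblast markers summed to 407.4 and 325.5 CPM in *Bmal1*-/- replicates 1 and 3, below the WT range of 1195 to 2017 CPM. *Bmal1*-/- replicate 2, at 2356 CPM, lay above that range. Schwann cell markers summed to 276.9 and 393.4 CPM in WT replicates 1 and 2, and to 156.2 CPM or less in the other libraries.

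None of the lineage genes passed the test between genotypes after adjustment, from OPC markers to newly differentiating OLs. With edgeR's quasi-likelihood test and Benjamini-Hochberg adjustment over all 15743 genes tested, 0 of the 9 genes passed an adjusted p of 0.05, where 247 genes, 1.57% of all tested, did. DESeq2 and limma-voom also called 0 of the 9, and DESeq2 called 9.13% of all genes it gave an adjusted p. At an unadjusted p of 0.05, 1 of the 9 passed (*Lhfpl3*), against 20.9% of all genes. The log2 fold change was above 0 for 5 of the 9 genes (48.9% of all genes) and below 0 for 4, with a median of 0.02, and the median of all genes tested was -0.01. Without WT replicate 3, 8 of the 9 were above 0 and the median was 0.03, and without WT replicate 1 the median was -0.04. In bulk tissue, fewer cells of a type and less RNA per cell cannot be told apart.

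**Figure D1:**
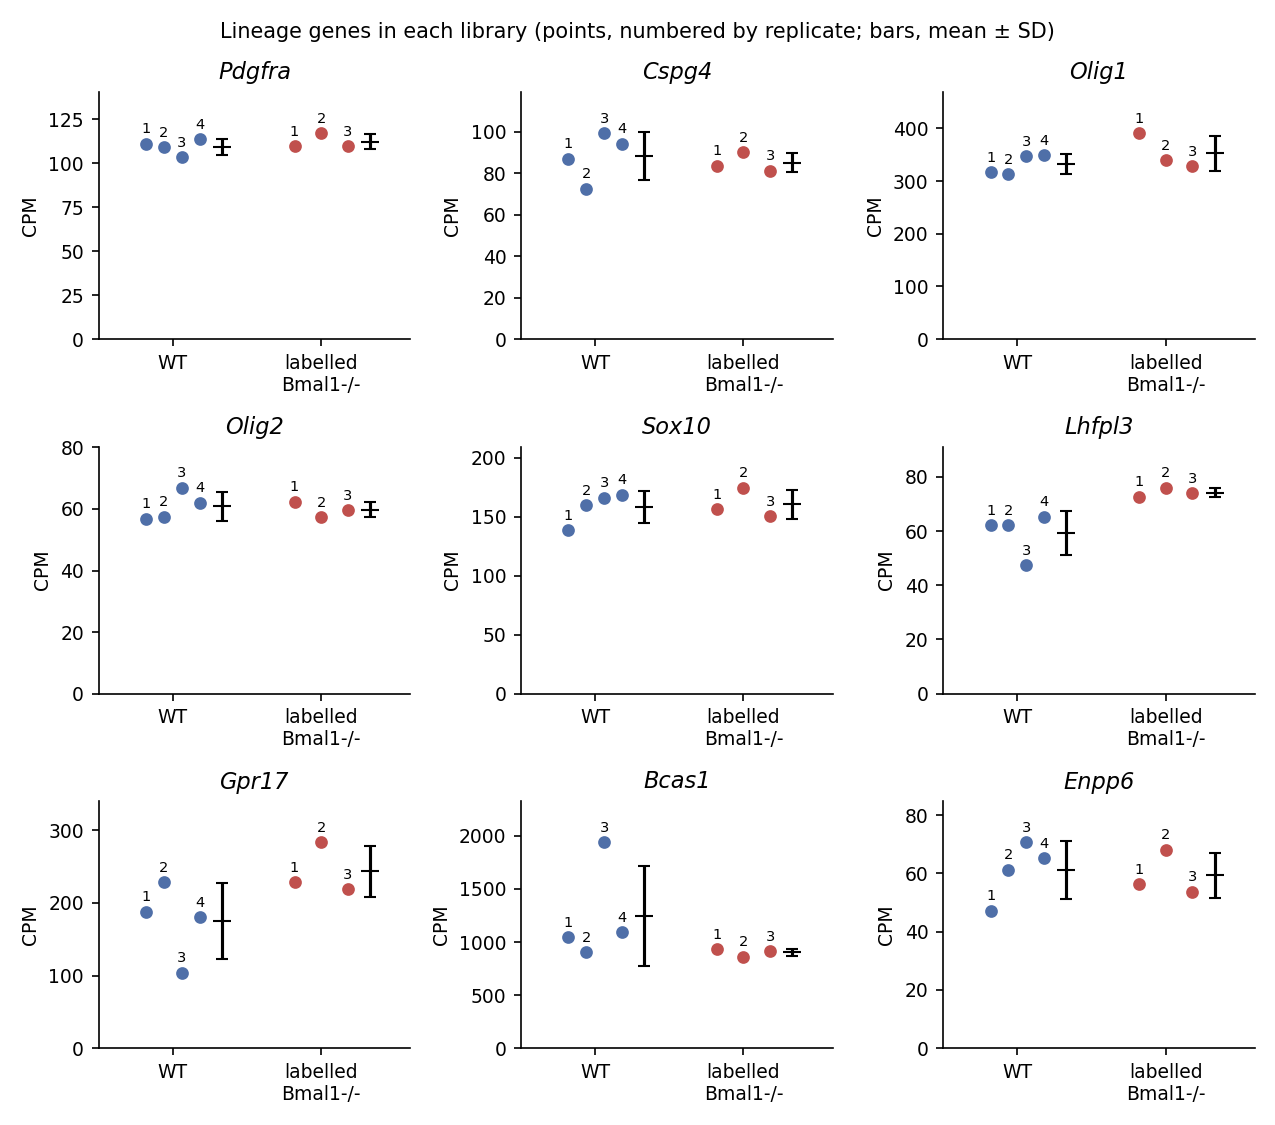
CPM (vertical axes, each from 0) of the 9 genes in the 4 WT libraries and the 3 libraries labelled Bmal1-/-, with points numbered by replicate and bars for mean ± SD. Pdgfra stays within 103.4 to 117.2 CPM in all 7 libraries, all 3 labelled Bmal1-/- points lie above WT for Lhfpl3 alone, and WT replicate 3 is the lowest point for Gpr17 and the highest for Bcas1.

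*Pdgfra*, the PDGF receptor α (ENSMUSG00000029231, chromosome 5 of GRCm38 from 75152292 to 75198215), was the steadiest of the 9. In the order of the replicates, as for every gene below, it had 109.8, 117.2 and 109.7 CPM in the mice labelled *Bmal1*-/- and 111.1, 109.3, 103.4 and 113.8 CPM in WT. The groups overlapped, the highest library was 1.13 times the lowest, and only 4.87% of all genes tested had a smaller SD of log2 CPM over the 7 libraries. The means were 112.2 ± 4.31 CPM (SD, n = 3) and 109.4 ± 4.39 CPM (SD, n = 4), which is a difference of 0.04 (SE 0.06, adjusted p = 0.707). The 95% interval of the fold change ran from 0.933 to 1.13, and with each library left out the log2 value stayed between 0.01 and 0.06. Genes on the opposite strand cover 456 and 166 of its 10024 exonic bases. The mice labelled *Bmal1*-/- with the low fibroblast sums, replicates 1 and 3, were at 109.8 and 109.7 CPM and replicate 2, with the high sum, at 117.2 CPM. The part of fibroblasts in the *Pdgfra* level was not tested.

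*Cspg4* (ENSMUSG00000032911, chromosome 9 from 56865033 to 56899870) encodes the proteoglycan NG2 on the OPC surface. Values were 83.7, 90.2 and 81.3 CPM in the mice labelled *Bmal1*-/- and 87.1, 72.6, 99.4 and 94.4 CPM in WT, so that the WT libraries enclosed the others. The difference was -0.06 (SE 0.11, 95% interval -0.31 to 0.20, adjusted p = 0.771), and 0.01 without WT replicate 3. Pericytes share *Cspg4*, and the 11 pericyte and smooth muscle markers summed to 300.3 to 378.4 CPM in the mice labelled *Bmal1*-/- and 409.4 to 520.7 CPM in WT. Of the 11, 3 had a log2 fold change above 0 and 8 below, with a median of -0.45, and -0.23 without WT replicate 3 and -0.26 without *Bmal1*-/- replicate 3. At an unadjusted p of 0.05, 2 were higher and 4 lower (20.9% of all genes passed in either direction). Groups did not overlap for 1 on the higher side (13.4% of all genes) and 4 on the lower side (13.5%). DESeq2 called 5 of the 11 (9.13% of all genes) and limma-voom 0. 1 of the 11, *Des*, the muscle intermediate filament desmin, passed the test, with a log2 fold change of -1.85 (adjusted p = 0.0312). Of all genes, 0.915% were called lower. The *Des* call was lost with limma-voom, with sex as a covariate, and without any 1 of the *Bmal1*-/- replicates or WT replicate 1 or 2. How far these cells enter the *Cspg4* level was not tested.

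*Lhfpl3* (ENSMUSG00000106379, chromosome 5 from 22746059 to 23275597), a membrane protein gene used as an OPC marker, was the only gene of the 9 whose groups did not overlap, as for 26.9% of all genes tested and 13.4% in the same direction. Its values were 72.7, 76.0 and 74.0 CPM in the mice labelled *Bmal1*-/- and 62.1, 62.2, 47.5 and 65.2 CPM in WT. All 3 libraries labelled *Bmal1*-/- lay above all 4 WT libraries, and WT replicate 3 was the lowest. The means were 74.2 ± 1.67 CPM (SD, n = 3) and 59.3 ± 7.97 CPM (SD, n = 4), which is a difference of 0.32 (SE 0.11, unadjusted p = 0.0189, adjusted p = 0.176). The 95% interval of the fold change was 1.05 to 1.49. Without WT replicate 3 the difference was smaller and passed the test, with a log2 fold change of 0.23 (95% interval 0.12 to 0.34, adjusted p = 0.0391) in a fit that called 4.66% of all genes. It passed in none of the other 14 alternatives. A gene on the opposite strand, *A930003O13Rik*, shares 567 of its 3213 exonic bases, and with the strand setting of the counting not given in the sources used here, the value is uncertain.

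*Olig1* and *Olig2* lie beside each other on chromosome 16 (ENSMUSG00000046160, 91269772 to 91271933, and ENSMUSG00000039830, 91225457 to 91228677) and encode the helix-loop-helix factors of the lineage. *Olig1* was counted at 390.7, 339.1 and 328.5 CPM in the mice labelled *Bmal1*-/- and at 317.0, 313.2, 347.1 and 349.2 CPM in WT. *Olig2* had 62.3, 57.4 and 59.6 CPM and 56.8, 57.5, 66.9 and 62.1 CPM, in the same order. Groups overlapped for both genes. The difference for *Olig1* was 0.09 (SE 0.09, 95% interval -0.12 to 0.30, adjusted p = 0.54). That for *Olig2* was -0.02 (SE 0.07, 95% interval -0.20 to 0.15, adjusted p = 0.852), and it was 0.02 without WT replicate 3 and 0.01 without *Bmal1*-/- replicate 2. Their levels were far apart per length: per kilobase of exon, *Olig1* was 6.39 ± 0.230 times *Olig2* in WT (SD, n = 4) and 6.90 ± 0.446 times in the mice labelled *Bmal1*-/- (SD, n = 3). A non-coding gene on the opposite strand covers 157 of the 2162 exonic bases of *Olig1*.

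*Sox10* (ENSMUSG00000033006, chromosome 15 from 79154908 to 79165240), which is needed for myelin gene transcription as well as for the identity of the lineage, was counted at 156.5, 174.7 and 150.6 CPM in the mice labelled *Bmal1*-/- and at 138.6, 159.6, 166.2 and 168.9 CPM in WT. The lowest value was in WT, the highest was not, and the groups overlapped. The difference was 0.02 (SE 0.09, 95% interval -0.19 to 0.23, adjusted p = 0.902). It was -0.01 with upper-quartile normalization and -0.04 without *Bmal1*-/- replicate 2 or without WT replicate 1. Schwann cells are another *Sox10* source. Of their 9 markers 8 were tested, and all 8 were below 0, with a median log2 fold change of -1.28. At an unadjusted p of 0.05, 7 were lower (20.9% of all genes passed in either direction). Groups did not overlap for 6 on the lower side (13.5% of all genes). DESeq2 called 6 (9.13%) and limma-voom 2. The 9 markers summed to 90.3 to 107.7 CPM in the mice labelled *Bmal1*-/- and 138.0 to 393.4 CPM in WT. *Egr2*, the regulator of peripheral myelin, and *Cdh19*, a Schwann cell cadherin, fell, with log2 fold changes of -1.09 (adjusted p = 0.0155) and -0.89 (adjusted p = 0.0362). Of all genes, 0.915% were called lower. *Egr2* lost its call without *Bmal1*-/- replicate 1 or 3 or WT replicate 1. *Cdh19* lost its call without any of these or WT replicate 2 or 4 and with sex as a covariate. The part of Schwann cells in the *Sox10* level was not tested.

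*Gpr17* (ENSMUSG00000052229, chromosome 18 from 31942997 to 31949636) encodes a receptor of committed precursors that is shut off before myelination. Its log2 fold change, 0.48, was the largest of the 9, and its error was large as well. It had 228.9, 283.7 and 218.8 CPM in the mice labelled *Bmal1*-/- and 188.2, 228.3, 103.9 and 180.3 CPM in WT. WT replicate 2 lay inside the other group and WT replicate 3 was far below the rest. The means were 243.8 ± 34.9 CPM (SD, n = 3) and 175.2 ± 51.9 CPM (SD, n = 4), with an SE of 0.24 and an adjusted p of 0.295. The 95% interval of the fold change, 0.936 to 2.07, takes in a doubling. Without WT replicate 3 the log2 fold change was 0.29 (95% interval -0.01 to 0.59, adjusted p = 0.222). The gene *Lims2* shares 188 of its 5195 exonic bases on the opposite strand and was counted at 25.9 to 41.6 CPM in the mice labelled *Bmal1*-/- and 23.5 to 29.3 CPM in WT.

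*Bcas1* (ENSMUSG00000013523, chromosome 2 from 170346991 to 170427845), which marks premyelinating OLs and stays in myelin, had the most negative difference. Counting gave 930.3, 863.8 and 916.0 CPM in the mice labelled *Bmal1*-/- and 1045, 904.5, 1941 and 1093 CPM in WT. WT replicate 3 stood well above all others, and WT replicate 2 lay inside the range of the mice labelled *Bmal1*-/-. The means were 903.4 ± 35.0 CPM (SD, n = 3) and 1246 ± 470.4 CPM (SD, n = 4), which is a difference of -0.46 (SE 0.26, 95% interval -1.08 to 0.15, adjusted p = 0.324). Without WT replicate 3 it was -0.17 (95% interval -0.38 to 0.05, adjusted p = 0.312). Opposite-strand genes cover 440 and 34 of its 3775 exonic bases. The same WT library had the highest *Mbp*, 19940 CPM, and *Mobp*, 6493 CPM, both genes of compact myelin, and its part in the *Bcas1* difference is given by the value without it.

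*Enpp6* (ENSMUSG00000038173, chromosome 8 from 46986887 to 47096762) encodes a choline phosphodiesterase that is highest in newly forming OLs. Levels were 56.2, 68.0 and 53.7 CPM in the mice labelled *Bmal1*-/- and 47.1, 61.3, 70.7 and 65.2 CPM in WT. The groups overlapped over most of their range. The difference was -0.04 (SE 0.15, 95% interval -0.39 to 0.30, adjusted p = 0.875), and it was 0.03 without WT replicate 3 and 0.02 without *Bmal1*-/- replicate 3.

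**Figure D2:**
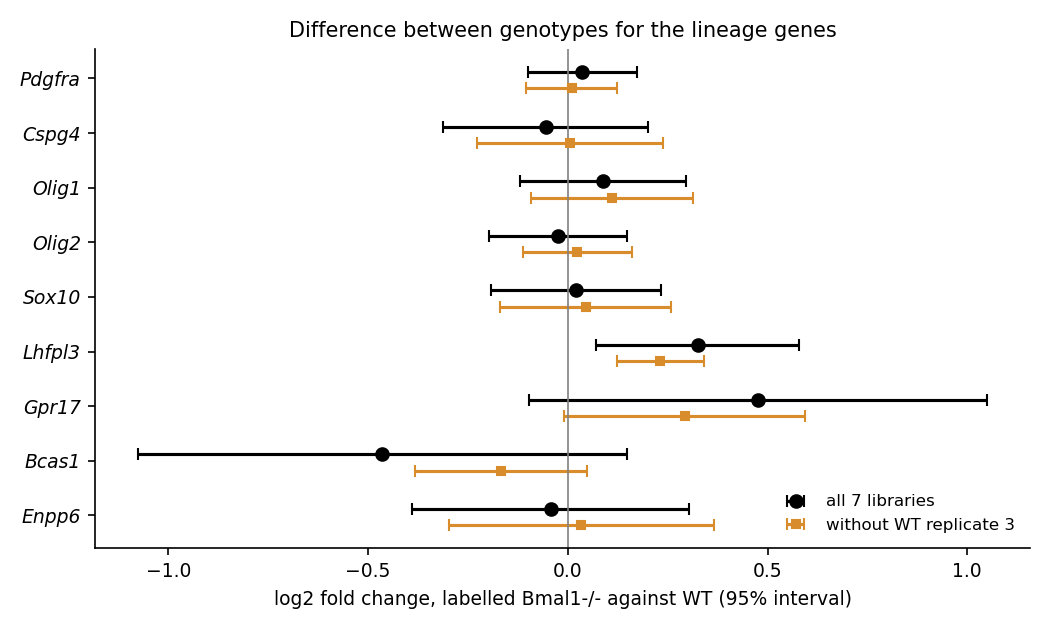
Log2 fold change of each gene (horizontal axis), libraries labelled Bmal1-/- against WT, with 95% intervals, from all 7 libraries (circles) and without WT replicate 3 (squares). With all 7 libraries the interval of Lhfpl3, 0.07 to 0.58, alone lies above 0, before any adjustment for the number of genes; the intervals of Gpr17 and Bcas1 are the widest and both shrink without WT replicate 3.

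How closely the values bound a difference varied along the lineage. The 95% interval kept *Pdgfra* within 0.933 to 1.13 times WT, *Olig2* within 0.872 to 1.11 times, *Sox10* within 0.875 to 1.18 times and *Olig1* within 0.921 to 1.23 times. *Cspg4* was kept within 0.806 to 1.15 times, *Enpp6* within 0.764 to 1.23 times and *Lhfpl3* within 1.05 to 1.49 times, the only interval without 1. The intervals of *Bcas1*, 0.474 to 1.11 times, and *Gpr17*, 0.936 to 2.07 times, were wider. With all 7 libraries, the differences were thus bounded less closely for *Gpr17* and *Bcas1* than for the other genes. Without WT replicate 3 this did not hold for either gene. The log2 interval of *Bcas1* was then -0.38 to 0.05, narrower than that of *Cspg4*, -0.23 to 0.24. That of *Gpr17* was -0.01 to 0.59, narrower than that of *Enpp6*, -0.30 to 0.37.

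Levels can be set side by side between genes only per length. In WT, the order in CPM per kilobase of exon was *Bcas1* (330.1 ± 124.6), *Olig1* (153.4 ± 8.88), *Sox10* (51.9 ± 4.50), *Gpr17* (33.7 ± 10), *Olig2* (24.0 ± 1.86), *Lhfpl3* (18.4 ± 2.48), *Pdgfra* (10.9 ± 0.438), *Enpp6* (9.53 ± 1.57) and *Cspg4* (7.41 ± 0.979), each as SD with n = 4. The ranges of *Bcas1*, *Olig1* and *Sox10* did not meet each other or those of any other gene in WT. The range of *Gpr17*, 20 to 43.9, took in that of *Olig2*, 22.4 to 26.4, and met that of *Lhfpl3*, 14.8 to 20.3. *Pdgfra*, *Enpp6* and *Cspg4* formed the lowest group, in which the range of *Enpp6*, 7.35 to 11, met those of both *Pdgfra* and *Cspg4*. The mice labelled *Bmal1*-/- gave the same order by their means, with *Olig2* at 23.6 ± 0.983 and *Lhfpl3* at 23.1 ± 0.521 CPM per kilobase (SD, n = 3) no longer apart. In these mice *Gpr17*, at 42.1 to 54.6 CPM per kilobase, met *Sox10*, at 49.4 to 57.3.

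**Figure D3:**
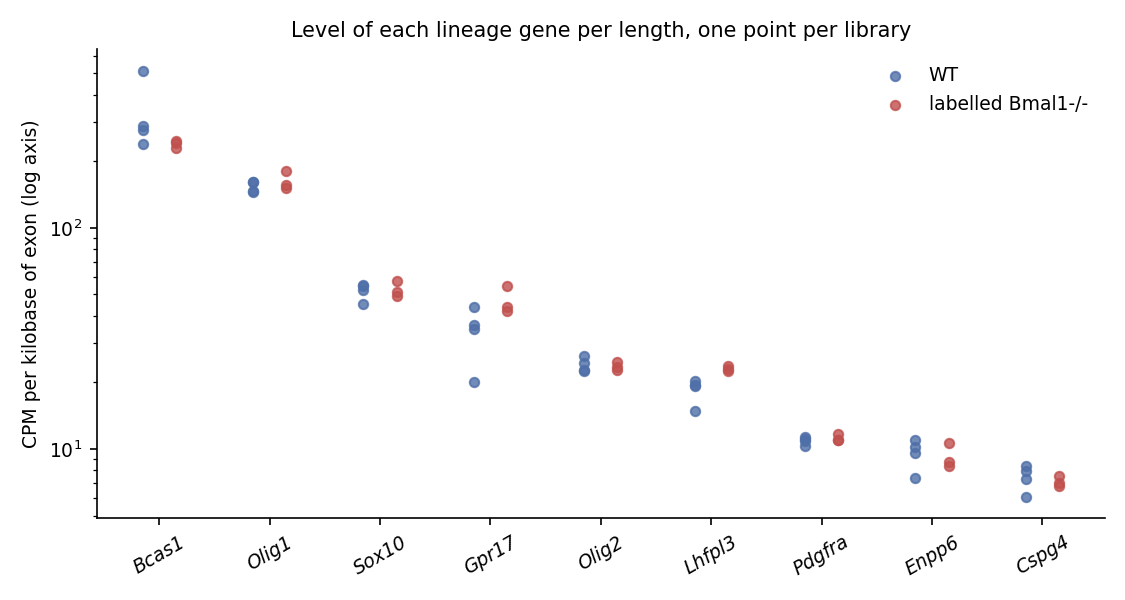
CPM per kilobase of exon (log axis) for each gene, with 1 point per library and genes ordered by the WT mean. Bcas1 lies above the other 8 genes in all 7 libraries, the WT points of Gpr17 spread from 20 to 43.9, and Pdgfra, Enpp6 and Cspg4 are the lowest.

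Dividing a later gene by an earlier one in the same library compares steps of the lineage within a mouse. These ratios were chosen with the values known and have no test. *Gpr17* per *Pdgfra*, both per kilobase, was 4.02, 4.67 and 3.85 in the mice labelled *Bmal1*-/- and 3.27, 4.03, 1.94 and 3.06 in WT, which overlap. *Lhfpl3* per *Pdgfra* was 2.07, 2.02 and 2.10 against 1.74, 1.77, 1.43 and 1.79, with no overlap between the groups, though both genes mark OPCs. *Enpp6* per *Gpr17* was 0.199, 0.194 and 0.199 against 0.203, 0.217, 0.551 and 0.293. Here the groups were separated by a small step, from 0.199 to 0.203, and most of the WT spread came from replicates 3 and 4. *Bcas1* per *Pdgfra* was 22.5, 19.6 and 22.2 against 25.0, 22.0, 49.9 and 25.5, which overlap. *Enpp6* per *Pdgfra* was 0.80, 0.91 and 0.76 against 0.66, 0.88, 1.07 and 0.90, which overlap as well. So did *Cspg4* per *Pdgfra*, *Gpr17* per *Olig2* and *Olig1* per *Olig2*. Taken singly, 26.9% of all genes were without overlap in either direction.

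The other genes of the lineage were counted in lists that hold none of the 9. Beside each list stand the shares of all genes: edgeR called 1.57%, and 20.9% had an unadjusted p under 0.05. DESeq2 called 9.13% of the genes it gave an adjusted p. Of 16 further OPC genes, 13 had a log2 fold change above 0 and 3 below, with a median of 0.21, and 5 had groups that did not overlap on the higher side (13.4% of all genes) and 1 on the lower side (13.5%). Only *Ncald*, a neuronal calcium sensor that OPCs also use, passed the test, 1 of 16 against 0.654% of all genes called higher. It reached 186.6, 183.8 and 183.9 CPM in the mice labelled *Bmal1*-/- and 100.7, 109.3, 71.5 and 88.6 CPM in WT. The 2 groups stood far apart, with a difference of 1.00 (SE 0.14, adjusted p = 0.0187). The call did not stand without *Bmal1*-/- replicate 1, 2 or 3 or WT replicate 1 or 4, where the adjusted p ran from 0.0521 to 0.108. *Tnr*, the matrix protein tenascin-R, had no overlap and a log2 fold change of 0.45 (adjusted p = 0.237), and 0.29 without WT replicate 3. *Sulf2*, a heparan sulfatase, and *Ptprz1*, a receptor phosphatase, had 0.20 (adjusted p = 0.278) and 0.26 (adjusted p = 0.382), but 0.11 without *Bmal1*-/- replicate 2 and 0.12 without WT replicate 3. DESeq2 called 2 of the 16. At an unadjusted p of 0.05, 5 of the 16 passed, all higher. Without WT replicate 3, 2 of the 16 passed edgeR's test (4.66% of all genes), both higher. The 16 summed to 1484 to 1576 CPM in the mice labelled *Bmal1*-/- and 1050 to 1344 CPM in WT. Neurons and astrocytes share several of these genes. All 10 neuron markers were above 0 (median log2 fold change 0.43, 0 called by edgeR or DESeq2, 1 at an unadjusted p of 0.05, 5 without overlap on the higher side), and their median was 0.25 without WT replicate 3. Of 9 astrocyte markers 6 were above 0 (median 0.42, 0 called by edgeR and 2 by DESeq2, 5 without overlap on the higher side and 1 on the lower), and 3 below. At an unadjusted p of 0.05, 3 were higher and 2 lower, and without WT replicate 3 the median was 0.28 and 2 passed the test, both lower, *Aldh1l1* (adjusted p = 0.0296) and *Slc1a3* (adjusted p = 0.0067), which were named after their values were seen. The 9 summed to 16030 to 18310 CPM in the mice labelled *Bmal1*-/- and 10260 to 15050 CPM in WT. The part of neurons and astrocytes in the OPC list was not tested.

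Among 12 further genes of newly differentiating OLs, 7 were above 0 and 5 below, with a median log2 fold change of 0.07, and 0 passed edgeR's test (2 at an unadjusted p of 0.05, 1 with DESeq2 and 0 with limma-voom). *Fyn*, a kinase of early myelination, had 138.5, 148.2 and 141.1 CPM in the mice labelled *Bmal1*-/- and 129.9, 129.0, 116.9 and 127.3 CPM in WT, with no overlap and a log2 fold change of 0.18 (adjusted p = 0.181). It was the gene that DESeq2 called, with an adjusted p of 0.0307. The 12 genes summed to 427.9 to 473.9 CPM in the mice labelled *Bmal1*-/- and 371.8 to 421.4 CPM in WT. *Mical3* and *Itpr2*, an actin regulator and a calcium channel of the endoplasmic reticulum, had log2 fold changes of 0.13 (adjusted p = 0.314) and 0.15 (adjusted p = 0.411).

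At the end of the lineage, 8 of 14 mature myelin genes were above 0 and 6 below, with a median log2 fold change of 0.04 and 0 called by edgeR, DESeq2 or limma-voom (1 at an unadjusted p of 0.05). *Mbp* had 12870 ± 1750 CPM (SD, n = 3) and 15650 ± 3447 CPM in WT (SD, n = 4), with a log2 fold change of -0.28 (adjusted p = 0.492). *Mobp* had a log2 fold change of -0.16 (adjusted p = 0.629), and 0.0030 without WT replicate 3. The 14 genes summed to 26120 to 31950 CPM in the mice labelled *Bmal1*-/- and 26120 to 37930 CPM in WT, with WT replicate 3 the highest.

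The regulators of the step from OPC to OL were split. Of 9 factors that promote differentiation, 4 were above 0 and 5 below, with a median log2 fold change of -0.0024, and 0 passed edgeR's test (2 at an unadjusted p of 0.05, 1 with DESeq2 and 0 with limma-voom). *Myrf*, the transcription factor of myelin genes, had 262.0 ± 21.8 CPM (SD, n = 3) and 247.3 ± 22.7 CPM (SD, n = 4), with a log2 fold change of 0.08 (adjusted p = 0.601). *Zeb2* and *Yy1*, repressors that let differentiation proceed, had -0.04 (adjusted p = 0.794, and 0.03 without WT replicate 3) and -0.06 (adjusted p = 0.444, groups not overlapping). *Sox17*, named after its values were seen, was the other of the 9 without overlap, also lower (13.5% of all genes). Its log2 fold change was -0.80 (edgeR, unadjusted p = 0.00669, adjusted p = 0.12). Without WT replicate 3 *Sox17* had -0.58 and passed edgeR's test (adjusted p = 0.0281, 4.66% of all genes).

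Of 8 factors that hold precursors back, 5 were above 0 and 3 below, with a median log2 fold change of 0.14, and they included *Id2*, which had the lowest adjusted p of all the lists. *Id2* encodes an inhibitor that binds helix-loop-helix factors such as the OLIG proteins. It had 151.8, 165.2 and 165.0 CPM in the mice labelled *Bmal1*-/- and 98.2, 87.7, 99.3 and 102.5 CPM in WT. *Id2* rose from 96.9 ± 6.40 CPM (SD, n = 4) to 160.7 ± 7.70 CPM (SD, n = 3), which is a difference of 0.73 (SE 0.07, adjusted p = 0.00508), and passed with each of the 7 libraries left out. *Hes1*, a target of Notch signalling, fell from 9.01 ± 1.61 CPM (SD, n = 4) to 4.02 ± 0.869 CPM (SD, n = 3), which is a difference of -1.16 (SE 0.20, adjusted p = 0.0419). That call was lost with sex as a covariate and in 6 of the 7 fits that left out a library, the exception being WT replicate 3. *Notch1*, the receptor upstream of *Hes1*, had -0.27 (adjusted p = 0.146, groups not overlapping), and *Id4*, a relative of *Id2*, had -0.16 (adjusted p = 0.489). All of these regulators are also used by astrocytes, endothelium or other cells of the cord. Of 9 endothelial markers all 9 were below 0, with a median of -0.58. At an unadjusted p of 0.05, 5 were lower (20.9% of all genes passed in either direction), and 5 had groups without overlap on the lower side (13.5%). DESeq2 called 3 of the 9 (9.13% of all genes) and limma-voom 0. Without WT replicate 3, whose endothelial sum was the highest at 840.3 CPM, 8 were below 0 and the median was -0.33. In that fit 3 of the 9 passed the test, all lower (4.66% of all genes passed). With all 7 libraries, 1 of the 9, *Cdh5*, the endothelial cadherin, passed with -0.85 (adjusted p = 0.0466). That call was lost with limma-voom, upper-quartile normalization or sex as a covariate and in the same 6 fits that left out a library. The part of endothelium in the *Hes1* value was not tested.

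OPC mitogens and their receptors gave 4 genes above 0 and 7 below of 11, with a median log2 fold change of -0.11 and 0 called by edgeR (1 at an unadjusted p of 0.05, 1 with DESeq2, 0 with limma-voom). *Fgf2*, a growth factor that keeps OPCs dividing, was counted at 85.1, 73.0 and 62.6 CPM in the mice labelled *Bmal1*-/- and at 109.0, 109.7, 134.5 and 103.4 CPM in WT. The groups did not overlap, and the difference was -0.63 (SE 0.13, adjusted p = 0.0672). It passed without WT replicate 3 (adjusted p = 0.037) and with DESeq2 (adjusted p = 0.000828). *Pdgfa*, the ligand of the *Pdgfra* receptor and named for that role after its values were seen, had 49.6 ± 0.73 CPM (SD, n = 3) and 50.5 ± 6.48 CPM (SD, n = 4), with a log2 fold change of -0.03 (adjusted p = 0.886). The FGF receptors *Fgfr1* and *Fgfr3* had 0.09 (adjusted p = 0.647) and -0.11 (adjusted p = 0.697, and 0.00011 without WT replicate 4).

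OPCs divide after injury, so genes of cell division were read beside them. All 12 proliferation genes were below 0, with log2 fold changes from -1.36 to -0.59 and a median of -0.91, and all 12 had groups that did not overlap on the lower side (13.5% of all genes). None of the 12 passed edgeR's test after adjustment (1.57% of all genes did), and limma-voom called 0. All 12 had an unadjusted p under 0.05 (20.9% of all genes), DESeq2 called 11 (9.13%), and 8 passed edgeR's test without WT replicate 3 (4.66%). They summed to 329.1 to 439.0 CPM in the mice labelled *Bmal1*-/- and 550.2 to 964.9 CPM in WT, over which *Pdgfra* ran from 103.4 to 117.2 CPM. Every dividing cell type of the tissue enters these sums, and the share of OPCs in them was not tested. The 10 markers of microglia and macrophages, which also divide after injury, had a median log2 fold change of -0.18, 0 called by edgeR or DESeq2 and 0 at an unadjusted p of 0.05, with sums of 2768 to 3666 CPM and 2729 to 4640 CPM. The fibroblast markers had 1 of 12 above 0, a median of -1.08 and 0 called by edgeR (5 at an unadjusted p of 0.05, 3 with DESeq2, 0 with limma-voom). Their median was -1.92 without *Bmal1*-/- replicate 2, whose fibroblast sum was the highest of all libraries, -0.69 without replicate 1 and -0.70 without replicate 3.

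**Figure D4:**
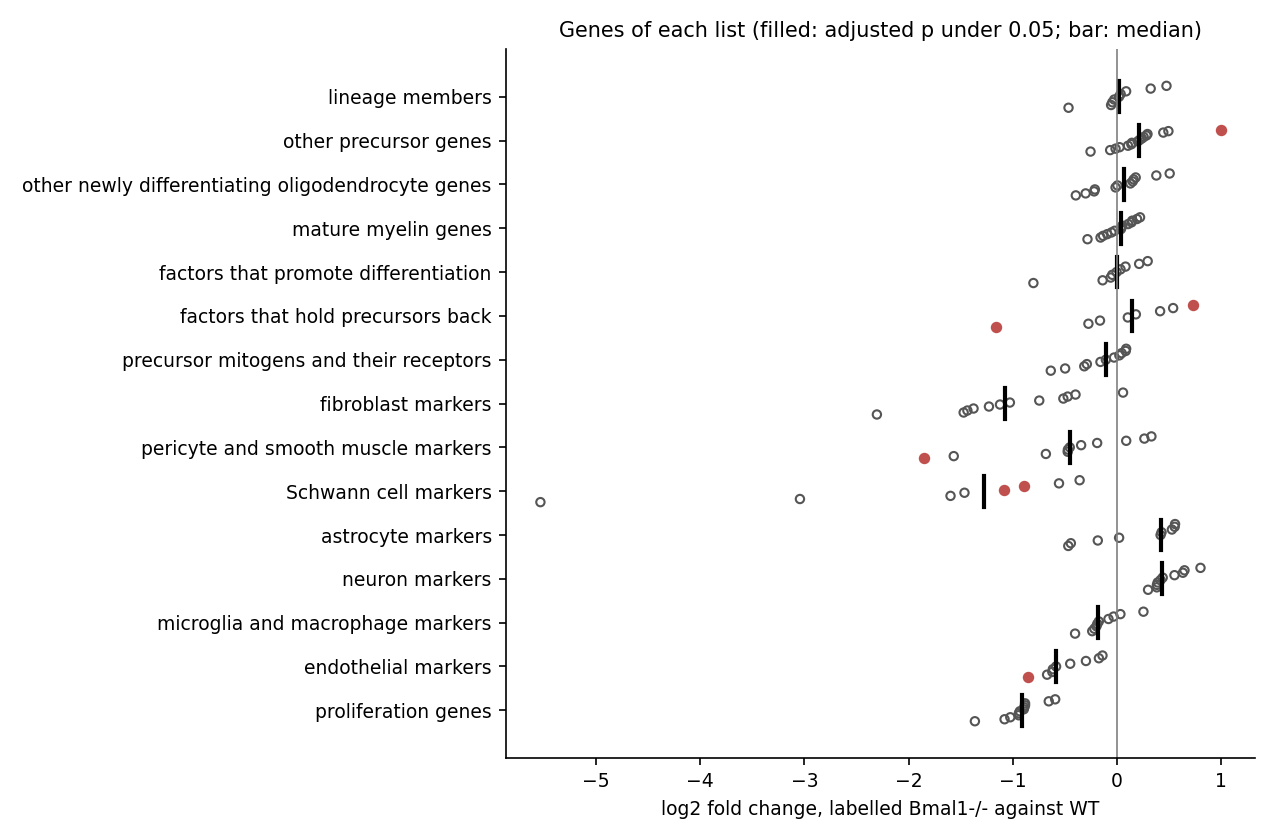
Log2 fold change (horizontal axis) of each gene in the 9 lineage genes and the 14 other lists, libraries labelled Bmal1-/- against WT, with filled points for an adjusted p under 0.05 by edgeR and bars for medians. The lineage genes centre on 0.02 with no filled point, and other lists also have none. The 12 proliferation genes, 9 endothelial markers and 8 tested Schwann cell markers all lie below 0, and the 10 neuron markers all lie above 0.

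The pattern over libraries was compared without regard to genotype by the root mean square (RMS) difference of log2 CPM, each gene centred on its own mean over the 7 libraries. The genes closest to *Gpr17* were *Arhgap20* (RMS difference 0.0945), *Map3k19* (0.107), *Ankrd29* (0.121), *Npr3* (0.122) and *Tnr* (0.126), where the RMS of *Gpr17* about its own mean was 0.425. *Tnr* was thus close to *Gpr17*, while *Lhfpl3* ranked 804 of 15742. Closest to *Enpp6* were *Tmem220* (0.05), *Ppfibp2* (0.0559), *Otud7b* (0.0595), *Gpr62* (0.0662) and *Hapln2* (0.0672), against its own RMS of 0.193. The last 2 are genes of mature OLs, and *Sox10* ranked 40. For *Pdgfra* and *Olig2*, whose own RMS were 0.0515 and 0.0796, the closest genes were *Pik3r2* (0.021), *Spast*, *Zfp646*, *Dvl3* and *Zfp672* (0.0269) for the former, and *Zfp90* (0.0183), *Fam53a*, *Slc7a6os*, *Mrpl18* and *Zfp653* (0.0257) for the latter. These distances rest on 7 libraries that share depth and tissue makeup and have no test.

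**Figure D5:**
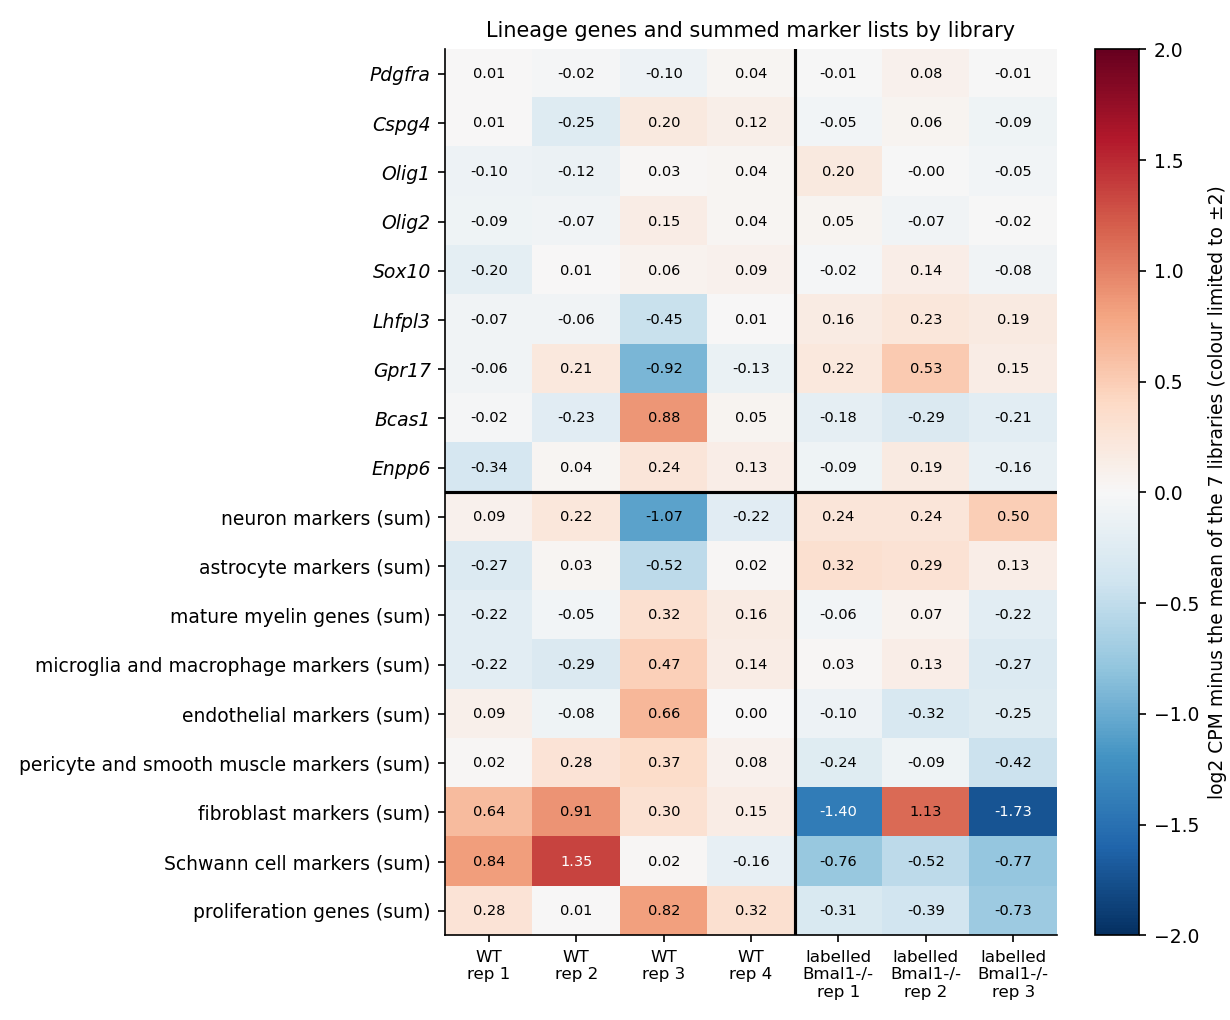
Log2 CPM of the 9 genes (upper rows) and of summed marker lists (lower rows) in each library, minus the mean of the 7 libraries, with colour limited to ±2. In WT replicate 3, Gpr17 and Lhfpl3 lie lowest (-0.92 and -0.45) and Bcas1 highest (0.88), next to neuron markers at -1.07; Pdgfra stays between -0.10 and 0.08 while the fibroblast sum runs from -1.73 to 1.13.

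Read by library rather than by genotype, the lineage genes of WT replicate 3 went opposite ways. *Gpr17* lay 0.92 and *Lhfpl3* 0.45 below their means on the log2 scale, *Bcas1* lay 0.88, *Enpp6* 0.24, *Cspg4* 0.20 and *Olig2* 0.15 above, and *Pdgfra*, *Olig1* and *Sox10* stayed within 0.10 of theirs. The sums of neuron and astrocyte markers lay 1.07 and 0.52 below their means in that library, and those of microglia and macrophage, endothelial and proliferation genes lay 0.47, 0.66 and 0.82 above. Their part in these values was not tested. In *Bmal1*-/- replicate 2 the fibroblast sum lay 1.13 above its mean. *Gpr17* (0.53), *Lhfpl3* (0.23), *Enpp6* (0.19), *Sox10* (0.14), *Pdgfra* (0.08) and *Cspg4* (0.06) were there at their highest among the libraries with that label. *Bcas1* (-0.29) and *Olig2* (-0.07) were at their lowest among them, and *Olig1* (-0.003) lay between.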

How the data were processed

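Mouse spinal cord RNA of 7 libraries was made into stranded poly-A libraries and sequenced by the authors on an Illumina NextSeq. Per the study's methods and the submitters' processing notes, reads were checked with FastQC 0.10.1, aligned to GRCm38 with Tophat2 and counted with HTSeq 0.10.0. The authors deposited whole-number counts per gene without normalization, and used DESeq2 themselves. The annotation release and strand setting are not given in the sources used here.

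Symbols matched 21939 of 21965 gene IDs. Genes were filtered with filterByExpr, scaled by TMM and tested with edgeR 4.0.16 (quasi-likelihood, limma 3.58.1, R 4.3.3) on genotype, with Benjamini-Hochberg adjustment over all 15743 genes tested and a threshold of 0.05. The 95% intervals of fold changes came from the same fit. Alternatives were DESeq2 1.42.0, limma-voom, RLE and upper-quartile scaling, looser and stricter low-count filters (any count, or a mean of at least 10), a term for sex, a replicate block and each library left out. Likeness used log2 CPM with a prior count of 2. Exon lengths and overlaps came from GENCODE for GRCm38. Libraries are 1 mouse each, so p-values set the difference between the groups against the spread between mice.

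Named were all 9 genes, each called gene of a list and the 3 most abundant genes of the 6 lineage and regulator lists. The 5 genes closest in pattern to *Pdgfra*, *Olig2*, *Gpr17* and *Enpp6* were named as well. *Pdgfa*, *Sox17*, *Aldh1l1* and *Slc1a3* were added after their values were seen. A gene that meets this rule is not reported here. The 9 genes and the 14 lists were chosen with earlier results of these data known. Plots were drawn with matplotlib 3.10.9.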

Additional observations from a re-analysis of the deposited data

How the results depend on the processing

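Of the 9 lineage genes, 0 passed under 14 of the 15 alternatives and 1, *Lhfpl3*, passed without WT replicate 3. Over all genes, the 247 calls became 1495 with DESeq2 and 0 with the replicate block, and 57 to 730 with each library left out, the highest being without WT replicate 3 and the lowest without *Bmal1*-/- replicate 1. The cause was not tested. Deviations of same-numbered libraries had r = -0.174, 0.183 and -0.295 over genes, beside -0.286 to 0.335 for libraries with unlike numbers. Same-numbered libraries also shared the sex of the mouse. With so few libraries, these values cannot tell whether the numbers pair the mice. It therefore cannot be said whether a call lost in the block is a weaker effect. *Pdgfra*, *Olig1*, *Lhfpl3*, *Gpr17* and *Bcas1* kept their sign under all 15 alternatives. Signs turned for values close to 0: *Sox10* with upper-quartile normalization (-0.0088, log2), and *Enpp6* (0.0026) and *Fgfr3* (0.018) with the replicate block. With each library left out, the log2 fold change ran from -0.144 to 0.0058 for *Cspg4*, -0.061 to 0.024 for *Olig2*, -0.043 to 0.062 for *Sox10*, -0.154 to 0.034 for *Enpp6*, -0.237 to 0.0030 for *Mobp*, -0.101 to 0.026 for *Zeb2* and -0.232 to 0.00011 for *Fgfr3*. It ran from 0.23 to 0.37 for *Lhfpl3*, 0.29 to 0.63 for *Gpr17* and -0.60 to -0.17 for *Bcas1*. Without WT replicate 3, list medians were 0.06 for the factors that hold precursors back and -0.04 for microglia and macrophages. That of the mature myelin genes was -0.05 without *Bmal1*-/- replicate 2 and -0.04 without WT replicate 1. No scaling moved the median of all genes by more than 0.03. With 1848 or more counts per library for each of the 9 genes, depth did not limit them.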
